A study of Mus musculus with 6 samples.

Results

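Liver sinusoidal endothelial cells (LSECs) were present in single-cell RNA-seq libraries of CD45+ cells sorted from mouse liver. A cell was counted as a member when the mean scaled score of Ptprb, Clec4g, Kdr and Gpihbp1 was above 1.5 and the mean score of the Kupffer cell genes Clec4f and Vsig4 was below 1. Members were thus chosen by the deposited scores of 6 genes, which are centred and scaled for each gene within a matrix and stop at a cap of 10. This rule found 655 members among 23008 cells, or 2.85%. Their endothelial genes and their numbers are therefore described here and were not tested.

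The libraries came from livers of Balb/c mice that received 4T07 mammary tumour cells into the heart. The tumour cells carried either a control hairpin (Ctrl) or a hairpin against Tim3 (Tim3-KD). Tim3 was thus lowered in the tumour cells, which a CD45+ sort does not collect, and every mouse was otherwise unmodified; ages were not given in the sources used here. For each tumour line there was 1 library from adjacent tissue (AT, which the labels call liver without tumour) at day 3, 1 from micrometastasis at day 3 and 1 from macrometastasis at day 12. Each library pooled 2 mice and was the only one of its group. No difference between libraries could therefore be tested, and site, day and library cannot be told apart. Intervals given below are exact 95% intervals that cover counting error only.

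LSECs line the narrow blood channels of the liver lobule. They have open pores and no continuous basement membrane, and they clear waste from blood through scavenger receptors such as the stabilins (Stab1, Stab2), the mannose receptor (Mrc1) and the inhibitory Fc receptor Fcgr2b. They differ along the lobule: cells near the central vein carry Kit, Wnt2 and Thbd, and cells nearer the portal tract carry Dll4, Ltbp4 and Msr1. Blood flow keeps the transcription factor Klf2 on, and inflammatory cytokines and interferon raise adhesion molecules, chemokines and antiviral genes in these cells. They are also the first host cells that circulating tumour cells meet in the liver.

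The scores that chose the members left few cells in doubt. In the macrometastasis matrix the lowest member had an endothelial score of 1.51 and the highest non-member 1.46, against medians of 4.30 in members and -0.276 in other cells. In the micrometastasis matrix these limits were 1.51 and 1.499, and in AT they were 1.63 and 0.885. Cells with a score from 1 to 1.5 numbered 28 in macrometastasis, 15 in micrometastasis and 0 in AT, and members from 1.5 to 2 numbered 9, 6 and 2. The Kupffer limit left out 17 cells that passed the endothelial limit. The highest Kupffer score of a member was 0.726 and the lowest of these 17 cells was 1.12. No barcode of a member was found among the members of another library.

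Unique molecular identifiers (UMIs, counted transcripts) were recovered from the scores, and levels are given as CPM, the UMIs of a gene scaled to a fixed total of all UMIs of the cells. The members matched their label in genes that the rule did not use. Stab2, a hyaluronan scavenger receptor, stood at 1314 CPM in all members of Macro_Ctrl, 56.3 CPM in Kupffer cells of that library and 12.96 CPM in all its other cells. Mrc1 stood at 1851 CPM in members and 589 CPM in Kupffer cells, which also use this receptor. Gpr182, an atypical chemokine receptor of sinusoidal endothelium, was at 1480 CPM in members and 4.61 CPM in Kupffer cells. The transcription factor Maf, which is used by both cell types, was at 2073 CPM and 453 CPM.

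The 20 genes with the highest fold of members over all other cells in Macro_Ctrl included Sox18, Cldn5, Clec14a and Esam of endothelium in general, F8 (coagulation factor VIII, which LSECs make) and Oit3. Adamts1, Cyp4b1, Gja4 and Pcdh12 were also among them. Their folds ran from 455 to 709. These are genes of the cells that the rule picked, so the folds describe the choice and show nothing beyond it. A score at the cap gives only a lower bound of the UMIs. In micrometastasis, where few cells express these genes, much of the LSEC signal was at the cap, and such values are drawn as open triangles in the plot of endothelial genes.

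**Figure D1:**
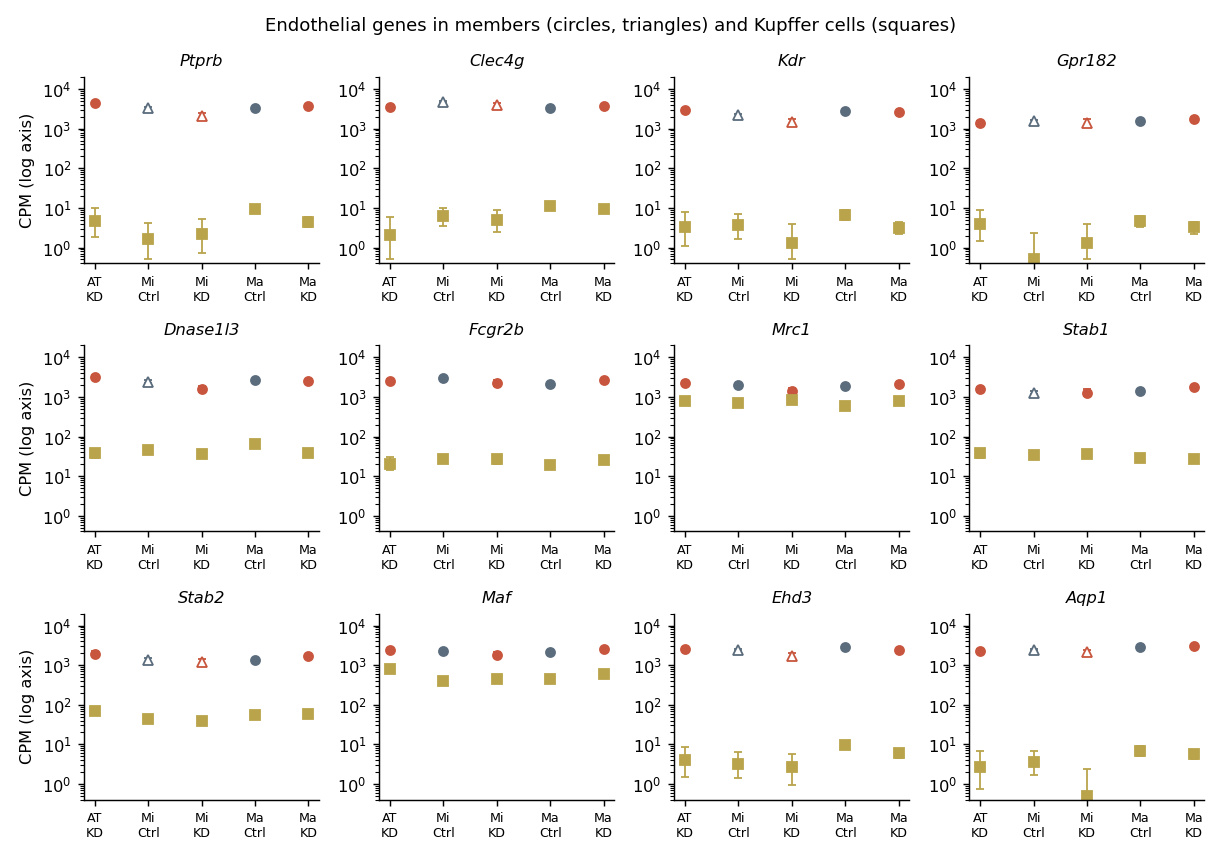
Levels of 12 endothelial genes in members with fewer than 3 UMIs of leukocyte genes (circles) and in Kupffer cells (squares) of 5 libraries, in CPM on a log axis with exact 95% counting intervals. Open triangles are member values with over 10% of UMIs at the score cap, which are lower bounds; points and intervals below 0.5 CPM are drawn at 0.5. Ptprb, Clec4g and Kdr are genes of the rule. Mrc1 and Maf were at 409 CPM or more in Kupffer cells too, and every gene was higher in members.

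Leukocyte RNA was found in a part of the members. The 12 pan-leukocyte markers, Ptprc (the gene of CD45) among them, were in none of the 3 matrices, so the sort itself could not be checked. Genes of 4 leukocyte lists (neutrophil, monocyte, B, and T and NK) were summed in each member instead. At least 3 such UMIs were found in 96 members, and 559 had fewer. The 96 were 4 of the 5 members of AT_Ctrl, 4 of 32 in AT_Tim3-KD, 11 of 83 in Micro_Ctrl, 24 of 49 in Micro_Tim3-KD, 33 of 349 in Macro_Ctrl and 20 of 137 in Macro_Tim3-KD. In Micro_Tim3-KD these cells held 75.7% of all UMIs of members, and 3 cells of over 30000 UMIs alone held 40.3%.

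The summed neutrophil genes show how far these cells moved a library. They were at 3007 CPM over all members of Micro_Tim3-KD and at 64.4 CPM over its members under 3 leukocyte UMIs. The same sums were 790 CPM and 45.5 CPM in Macro_Tim3-KD, and 131 CPM and 39.0 CPM in Macro_Ctrl. In Kupffer cells, which do not make them, neutrophil genes stood at 59.1 to 171 CPM in the 5 libraries with at least 10 members. A doublet score above 0.15, computed again on the deposited cells, was found in 35 members, 9 of them in Micro_Tim3-KD. Whether a member with leukocyte UMIs was 2 cells in 1 droplet was not tested. For each comparison below, counts over all genes are given over all members and over the 559 members under 3 leukocyte UMIs. Single genes, and some lists, are given for the second set only. The limit of 3 was chosen after seeing the data.

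**Figure D2:**
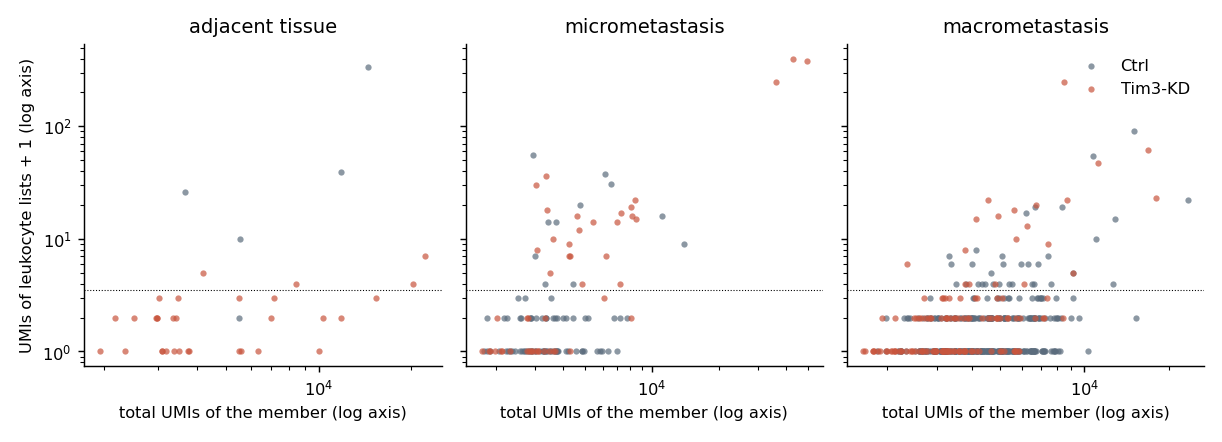
Each point is 1 member, with its total UMIs on the x axis and its UMIs of the 4 leukocyte lists plus 1 on the y axis, both log axes, in Ctrl (grey) and Tim3-KD (red) libraries. The dotted line separates members with at least 3 leukocyte UMIs; 3 Micro_Tim3-KD members of over 30000 UMIs stand at the upper right.

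RNA of other liver cells was low in members of both macrometastasis libraries. The 13 Kupffer markers summed to 293 CPM in Macro_Ctrl and 413 CPM in Macro_Tim3-KD over all members, against 34540 and 43670 CPM in Kupffer cells of these libraries. Under 3 leukocyte UMIs the same sums were 295 CPM in each. Of the 19 hepatocyte markers, 9 were in the macrometastasis matrix, and they summed to 216 CPM in Macro_Ctrl and 348 CPM in Macro_Tim3-KD. Of 13 stellate and fibroblast markers, 3 were held there, and they summed to 94.1 and 71.5 CPM. This list was not lower in members than in all other cells, at 43.2 and 44.5 CPM. In Kupffer cells it was at 104 and 99.4 CPM. The single tumour epithelial marker held, Wfdc2, had 0 UMIs in members of macrometastasis. All of these lists were used in full, as far as the matrices held their genes.

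The share of members ranged from below 1% to 7.10% of the cells of a library. Members were 7.10% of the cells in Macro_Ctrl (349 of 4913, interval 6.40 to 7.86) and 2.49% in Macro_Tim3-KD (137 of 5502, 2.10 to 2.94). They were 1.63% in Micro_Ctrl (83 of 5106, 1.30 to 2.01) and 0.953% in Micro_Tim3-KD (49 of 5142, 0.706 to 1.26). In AT the order was the opposite, with 0.277% in AT_Ctrl (5 of 1803, 0.0901 to 0.646) and 5.90% in AT_Tim3-KD (32 of 542, 4.07 to 8.23). AT_Tim3-KD and Macro_Ctrl had overlapping intervals and held the 2 highest shares.

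The same order of Ctrl and Tim3-KD was found at each site without the members that carried leukocyte UMIs. The shares were then 6.43% and 2.13% in macrometastasis, 1.41% and 0.486% in micrometastasis and 0.0555% and 5.17% in AT. Members held fewer UMIs than the rest of their library, with medians of 3330 to 5550 against 6600 to 10640 in other cells. A share in a CD45+ sort depends on how many endothelial cells passed the gate, so it is not a share of the liver. The sort, the total number of cells and the tissue piece differed between libraries together with the tumour line, and their part was not tested.

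**Figure D3:**
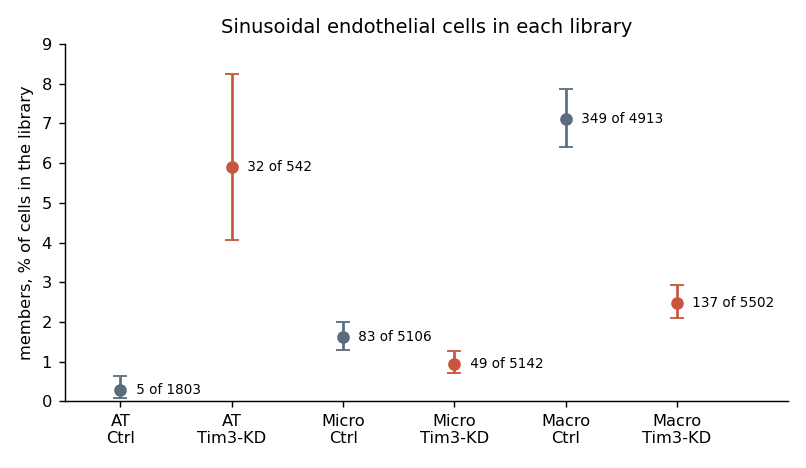
Share of members among the cells of each library, in percent, with exact 95% binomial intervals that cover counting error only, in Ctrl (grey) and Tim3-KD (red). The share was higher in Ctrl than in Tim3-KD in macrometastasis and micrometastasis and lower in AT.

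Macrometastasis gave the only comparison of Tim3-KD with Ctrl that rested on over 100 members on each side. It asks how endothelium of the metastatic liver differed when the tumour cells had less TIM3. In members under 3 leukocyte UMIs, all 19 measured interferon-stimulated genes and 8 of 9 immediate early genes had ratios below 1 in Tim3-KD, the flow-responsive factor Klf2 was lower, and Lrg1, Hgf and Kit were higher. Over all members 16 of 20 measured interferon-stimulated genes had ratios below 1. Of 1264 genes with at least 50 UMIs over both libraries, 72 were at least 2-fold higher in Tim3-KD (5.7%) and 26 at least 2-fold lower (2.06%). Over the 117 and 316 members under 3 leukocyte UMIs, 22 of 1094 genes were higher (2.01%) and 22 lower (2.01%). Without replicates these are sizes, and no call of significance is attached to them.

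The counts over all members included leukocyte genes. Over all members the 8 highest genes were Pglyrp1, G0s2, Asprv1, Stfa2, Ngp, Slfn1, Slfn4 and Ccl3, most of them genes of neutrophils and other myeloid cells. Ngp had 228 UMIs in Macro_Tim3-KD, of which 88.2% came from 1 member. The values that follow are therefore from members under 3 leukocyte UMIs, unless all members are named, and the log2 ratios are Tim3-KD over Ctrl. Their median over all 1094 genes was 0.04.

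Interferon-stimulated genes stood lower in members of Macro_Tim3-KD. This list holds antiviral effectors and GTPases that interferon switches on. Of its 35 genes, 19 had enough UMIs, all 19 had a ratio below 1, and 3 were at least 2-fold lower (Rsad2, Ifit1 and Ifit3). Their median log2 ratio was -0.43, beside 0.04 over all genes. Over all members 16 of 20 were below 1 and 4 above, with a median of -0.45, 3 were at least 2-fold lower (Ifit3, Tgtp2 and Gbp4), and Irf7 was at 71.5 against 55.2 CPM.

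Rsad2 (viperin, which blocks viral replication) was at 50.3 CPM in Tim3-KD and 136 CPM in Ctrl, a log2 ratio of -1.40. Its ratio of 0.378 had an interval of 0.224 to 0.582. Ifit1, which binds foreign RNA caps, was at 26.4 and 69.9 CPM, with a ratio of 0.392 (0.182 to 0.703). Isg15, a ubiquitin-like modifier, was at 137 and 267 CPM, with a ratio of 0.515 (0.381 to 0.676). Their intervals lay wholly below 1. Over all members Rsad2 had a ratio of 0.785 (0.566 to 1.06) and Isg15 0.750 (0.603 to 0.919), and 1 member held 35.8% of the Rsad2 UMIs of Macro_Tim3-KD and 21.2% of its Isg15 UMIs. The immunity GTPases Gbp4 and Irgm1 were lower in the same direction, at ratios of 0.555 and 0.561.

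The promoters of these 3 genes are shown because their transcripts were lower together. The windows run from 250 bases before to 50 bases after the start in RefSeq for GRCm38.p6. The letters searched were GAAA, any 2 bases and GAAA again, on both strands (TTTC, any 2 bases and TTTC in reverse), the core of the interferon-stimulated response element, and every match is in capitals; overlapping matches run together.
Isg15 promoter: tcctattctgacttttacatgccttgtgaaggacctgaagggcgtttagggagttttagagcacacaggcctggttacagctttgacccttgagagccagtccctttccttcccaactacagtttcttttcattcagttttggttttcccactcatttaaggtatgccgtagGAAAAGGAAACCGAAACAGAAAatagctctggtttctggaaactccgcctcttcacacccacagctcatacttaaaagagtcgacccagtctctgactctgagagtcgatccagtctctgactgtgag
Ifit1 promoter: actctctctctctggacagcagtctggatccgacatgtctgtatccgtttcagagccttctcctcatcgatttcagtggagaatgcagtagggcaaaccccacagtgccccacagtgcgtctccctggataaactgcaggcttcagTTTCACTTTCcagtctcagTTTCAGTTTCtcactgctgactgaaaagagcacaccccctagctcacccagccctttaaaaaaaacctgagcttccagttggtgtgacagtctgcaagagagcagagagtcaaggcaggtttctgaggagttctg
Rsad2 promoter: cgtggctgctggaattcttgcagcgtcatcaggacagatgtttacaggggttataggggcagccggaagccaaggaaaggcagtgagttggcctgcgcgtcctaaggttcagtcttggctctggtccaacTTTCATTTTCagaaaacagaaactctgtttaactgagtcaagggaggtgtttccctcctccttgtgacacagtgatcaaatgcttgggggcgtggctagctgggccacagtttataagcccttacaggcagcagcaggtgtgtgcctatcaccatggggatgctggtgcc
The Isg15 window is chr4:156200769-156201068 on the minus strand, with 3 overlapping matches. The Ifit1 window is chr19:34640639-34640938 on the plus strand, with 2 matches. The Rsad2 window is chr12:26456403-26456702 on the minus strand, with 1 match. The first match began 78, 104 and 120 bases before the start. Of all 32851 promoter windows, 1131 held the letters (3.44%), and counted by gene 1079 of 27025 genes did. Of the 26 interferon-stimulated genes that had a window, 18 held them, and of 15 LSEC identity genes 0 did. A match is a description of these letters and not evidence of binding in these cells.

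Of 17 chemokines 5 had enough UMIs in each set of members, and 4 of them had ratios below 1. Over all members 0 were past 2-fold, and under 3 leukocyte UMIs only Ccl2 was. Cxcl9, a ligand of CXCR3 on T cells, was at 105 CPM in Tim3-KD and 198 CPM in Ctrl, with a ratio of 0.536 (0.378 to 0.731). Ccl2, which draws monocytes, was at 26.4 and 68.6 CPM, with a ratio of 0.3997 (0.186 to 0.717). Cxcl1, which draws neutrophils, had a ratio of 1.21 (0.866 to 1.65).

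Klf2 and Nr4a1 were the 2 genes at least 2-fold lower among 7 measured genes of the shear and vascular tone list, of which 3 had ratios above 1 and whose median log2 ratio was -0.10. Klf2, which laminar flow keeps on in endothelium, was at 599 CPM in Tim3-KD and 1406 CPM in Ctrl, with a ratio of 0.427 (0.372 to 0.486). Nr4a1, an orphan nuclear receptor of the early response, had 3 and 75 UMIs, with a ratio of 0.165 (0.0287 to 0.433). Of 9 immediate early and heat shock genes, 8 had ratios below 1 in each set of members. Median log2 ratios were -0.49 over all members and -0.32 under 3 leukocyte UMIs, and Atf3 was at least 2-fold lower in the second set only. The AP-1 members Fos and Jun were at 1092 against 2152 CPM and at 1579 against 2925 CPM. Egr1 was at 1248 against 2201 CPM. These genes also respond to tissue digestion within minutes, and both pieces were digested by the same protocol; the part of handling was not tested. In Kupffer cells of the same libraries, Klf2 was at 842 CPM in Tim3-KD and 1603 CPM in Ctrl, so a difference in that direction was not confined to endothelium.

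Lrg1, Hgf and Kit were among the genes at least 2-fold higher in members of Macro_Tim3-KD. Lrg1, a secreted glycoprotein that modulates TGF-beta signalling in vessels, was at 515 CPM in Tim3-KD and 128 CPM in Ctrl, 4.03-fold higher (3.30 to 4.93). Hgf, the hepatocyte growth factor by which LSECs act on hepatocytes, was at 192 and 82.7 CPM, 2.32-fold higher (1.73 to 3.10). It was the only 1 of 5 measured angiocrine factors above 1, also over all members, where Tgfb1 was at least 2-fold lower. The median log2 ratio of that list was -0.10. Kit, the stem cell factor receptor that marks pericentral LSECs, was at 261 and 115 CPM, 2.27-fold higher (1.77 to 2.90). No single member held over 8.95% of the UMIs of Lrg1, Hgf or Kit in either library. Fabp4, a fatty acid binding protein of endothelium, was 1.87-fold higher (1.72 to 2.03) and Clec1b, a C-type lectin of LSECs, 1.87-fold higher (1.65 to 2.12). Clec1b is also a platelet gene, and Pf4, the other platelet marker held by the matrix, was at 55.1 CPM in Tim3-KD and 20.2 CPM in Ctrl on 23 and 30 UMIs. Trf, made by hepatocytes, was 4.47-fold higher on 34 and 27 UMIs, beside hepatocyte sums of 379 and 202 CPM, whose part was not tested.

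The members were chosen by endothelial genes in both libraries at once, so likeness in such genes is built into the choice and their levels are a description. Of 21 LSEC identity genes, 0 were 2-fold apart in either direction, beside 44 of all 1094 genes, and the median log2 ratio was 0.12. Stab2 was at 1703 CPM in Tim3-KD and 1353 CPM in Ctrl, and Stab1 at 1766 and 1394 CPM. Fcgr2b was at 2604 and 2159 CPM, and Dnase1l3, a secreted DNase, at 2513 and 2702 CPM. Of 22 pan-endothelial genes and 11 scavenger receptors, 0 were 2-fold apart. The adhesion list, which holds Icam1 and Vcam1, had 0 of 9 genes 2-fold apart and a median log2 ratio of -0.22. Over all members 0 of 22 LSEC identity genes were 2-fold apart, with a median of -0.05. In the adhesion list 1 of 11 then was, with Lcn2 at least 2-fold higher.

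**Figure D4:**
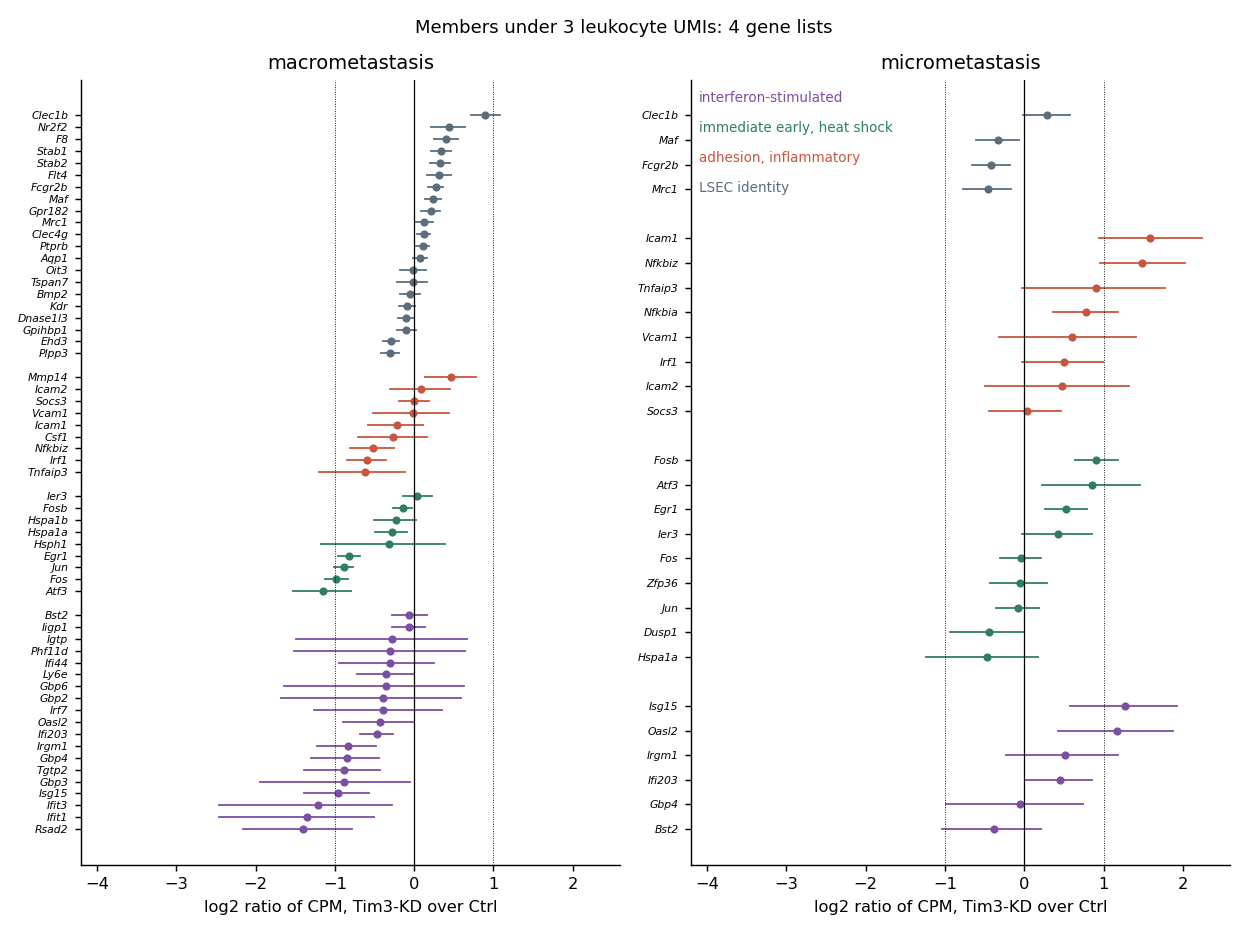
Log2 ratio of CPM, Tim3-KD over Ctrl, of each measured gene of 4 lists in members under 3 leukocyte UMIs of macrometastasis (left) and micrometastasis (right); bars are 95% counting intervals and dotted lines mark 2-fold. In macrometastasis all 19 interferon-stimulated genes lie left of 0, and in micrometastasis all 8 adhesion and inflammatory genes lie right of 0.

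Members formed 5 Leiden clusters, which are described by their leading genes. A cluster of 54 members was led by the neutrophil genes Mmp8 and Ltf, and 51 of them had at least 3 leukocyte UMIs. A cluster of 44 was led by the MHC class II genes H2-Ea and H2-Aa and held 12 of the 32 members of AT_Tim3-KD. Leading genes come from sums over a cluster, and H2-Aa had few UMIs in AT_Tim3-KD, so they need not describe each member. The larger clusters were 213 members led by Lgals1 and Cd302 and 266 members led by Polg2, Klf2 and Maff, with Fos, Jun and Ifit1 also among its leading genes. Since these genes made the clusters, their levels are no finding. The Klf2 cluster held 48.7% of the members of Macro_Ctrl (43.4 to 54.1) and 26.3% of those of Macro_Tim3-KD (19.1 to 34.5). At a resolution of 1, a cluster led by Rnd1, Ifit1, Klf2 and Ifit3 held 110 of the 349 members of Macro_Ctrl and 4 of the 137 of Macro_Tim3-KD. Of the genes at least 2-fold lower in Macro_Tim3-KD, Rnd1, Ifit1, Klf2, Ifit3 and Rsad2 were among its 10 leading genes, and Nr4a1, Ccl2 and Atf3 were not. Over all 1094 genes, 22 were at least 2-fold lower (2.01%). That cluster was made from the same transcripts and lay mostly in Macro_Ctrl, so this overlap was built in and is no finding.

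The fifth cluster, of 78 members, was led by the metallothionein Mt1, Fabp4 and the integrin Itgb3. It also carried Selp (P-selectin, an adhesion molecule of veins), Cd93 and Cdkn1a. All 78 were in macrometastasis: 43 in Ctrl, or 12.3% (9.06 to 16.2), and 35 in Tim3-KD, or 25.6% (18.5 to 33.7). Of the 83 members of Micro_Ctrl, 0 were in it, which allows up to 4.35%. Clec4g stood at 1041 CPM there and at 3124 and 4683 CPM in the 2 largest clusters, while Ptprb stood at 2833 CPM against 3461 and 3566 CPM. Among macrometastasis members under 3 leukocyte UMIs, Mt2 was 25.4-fold, Lrg1 10.5-fold and Selp 5.81-fold higher in the cluster than outside. Gatm, Sox18 and Gata4, a transcription factor of LSEC identity, were at 0.0671, 0.0967 and 0.130 of the level outside. Only 2 of the 78 had 3 or more leukocyte UMIs. When genes with many UMIs at the cap were left out of the clustering, 77 of the 78 stayed together in a cluster of 80 that held 3 micrometastasis members.

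**Figure D5:**
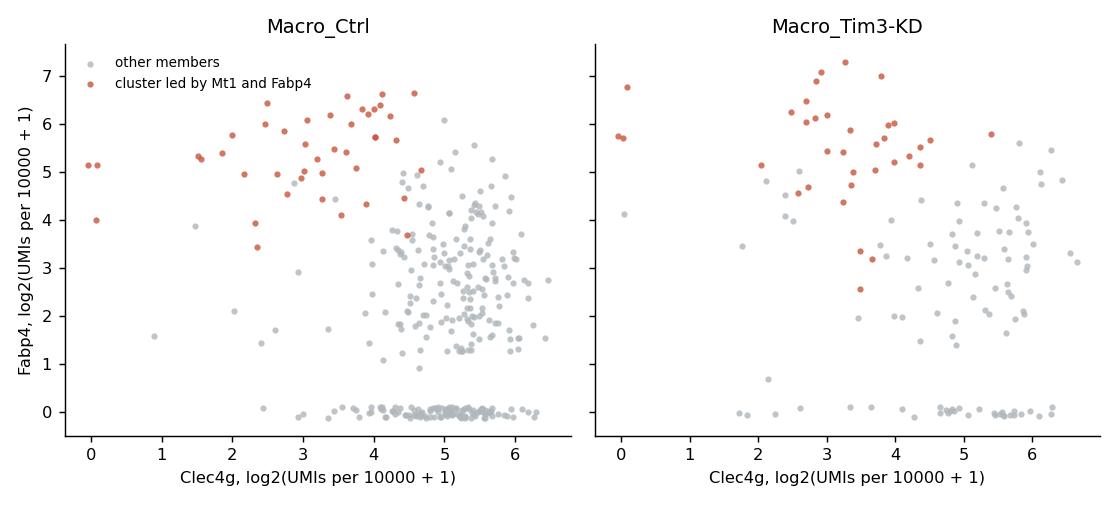
Each point is 1 member of macrometastasis, with Clec4g on the x axis and Fabp4 on the y axis as log2(UMIs per 10000 + 1), slightly jittered. Members of the cluster led by Mt1 and Fabp4 (red, 43 in Ctrl and 35 in Tim3-KD) lie at high Fabp4 and lower Clec4g than most other members (grey).

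Differences between tumour lines in Lrg1, Klf2, Isg15 and Hgf were found outside that cluster, and within it they were smaller or in the other direction. Outside it Lrg1 was at 356 CPM in Macro_Tim3-KD (83 members) and 23.7 CPM in Macro_Ctrl (274 members), and within it at 1005 and 884 CPM. Klf2 was at 476 and 1460 CPM outside and at 976 and 1018 CPM within. Isg15 was at 108 and 292 CPM outside, and at 225 and 83.4 CPM within on 23 and 15 UMIs. Hgf was at 245 and 77.3 CPM outside and had 3 and 22 UMIs within. Fabp4, which led the cluster, had log2 ratios of 0.57 outside and 0.22 within, below the 0.90 of both together. The clusters were made from the same transcripts, so these values are a description.

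Zonal landmark genes were compared between members of Macro_Ctrl split by 1 landmark at a time. Members with a UMI of Kit were compared with the 214 without, at median totals of 4886 and 4237 UMIs. Wnt2, the Wnt ligand of central vein endothelium, was 1.98-fold higher with Kit (1.58 to 2.48), and Gja4, a connexin, 1.65-fold (1.37 to 1.99). The portal-side genes Msr1, Ltbp4 and Dll4 had ratios of 0.699, 0.726 and 0.657. A split by Msr1, a scavenger receptor, gave the reverse, with Ltbp4 1.95-fold and Dll4 1.76-fold higher and Thbd (thrombomodulin) at a ratio of 0.431. The splits by Wnt2 and Ltbp4 gave less of this order. With Wnt2, Kit had a ratio of 1.64 (1.20 to 2.27) and Msr1 0.683 (0.555 to 0.837), but Thbd 0.885 (0.623 to 1.26) and Dll4 0.824 (0.611 to 1.11). With Ltbp4, Kit had 0.542 (0.397 to 0.741), but Wnt2 1.19 (0.931 to 1.53). In Macro_Tim3-KD the split by Kit gave 2.29 for Wnt2 and 0.618 for Msr1, and the intervals of Dll4 (0.433 to 1.66) and Ltbp4 (0.532 to 1.18) held 1. The link of the cluster led by Mt1 and Fabp4 to these splits varied. In Macro_Ctrl Fabp4 had a ratio of 1.92 with Kit and 0.386 with Msr1, but 0.845 with Wnt2 (0.765 to 0.932). In Macro_Tim3-KD it had 0.950 with Kit (0.829 to 1.09) and 0.380 with Msr1. Kit was at 217 CPM in the cluster and 101 CPM outside in Macro_Ctrl, and at 156 and 295 CPM in Macro_Tim3-KD. In that cluster Thbd and Gja4 were higher than outside, with 45.3% and 12.3% of their UMIs there at the cap. Msr1 and Ltbp4 were at 0.324 and 0.222 of the level outside. The part of the cluster in the zonal order was not tested. Over members of Macro_Ctrl, Thbd, Wnt2 and Dll4 had 24.6%, 12.5% and 11.6% of their UMIs at the cap, and in Macro_Tim3-KD Wnt2 and Dll4 had 13.9% and 30.0%. Ratios of these genes in the splits are thus between sums that are lower bounds, and they are approximate. Cells with more UMIs show a UMI of any gene more often, and these ratios are over total UMIs.

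Micrometastasis held fewer members, and its ratios differed most between the sets with and without leukocyte UMIs. Over all members, 60 of 397 genes were at least 2-fold higher in Tim3-KD (15.1%) and 174 at least 2-fold lower (43.8%), with a median log2 ratio of -0.90 over all 397. Ltf, a neutrophil granule protein, had 596 UMIs in Tim3-KD and 4 in Ctrl. The MHC class II gene H2-Aa had 21 and 221 UMIs, of which 86.0% of those in Ctrl came from 1 member. Over the 25 and 72 members under 3 leukocyte UMIs, 9 of 217 genes were higher (4.15%) and 15 lower (6.91%), and the median was -0.10. This set held 77655 UMIs of Tim3-KD in place of 319216, so fewer genes could be compared.

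Adhesion and inflammatory genes stood higher in these members of Micro_Tim3-KD. All 8 genes of the list with enough UMIs had ratios above 1, with a median log2 ratio of 0.69, and Icam1 and Nfkbiz were at least 2-fold higher. Icam1, to which leukocytes bind on LSECs, was at 528 CPM in Tim3-KD and 175 CPM in Ctrl, 3.02-fold higher (1.93 to 4.71), and 1 member held 36.6% of its UMIs in Tim3-KD. Nfkbiz, an NF-kappaB cofactor, was at 721 and 257 CPM, 2.81-fold higher (1.93 to 4.07). Nfkbia, the inhibitor that NF-kappaB induces, was at 992 and 579 CPM, a ratio of 1.72 (1.28 to 2.27). Over all members 4 of 9 genes had ratios above 1 and 5 below, and only Nfkbia was at least 2-fold higher. Their median was -0.42, beside -0.90 over all 397 genes. The list thus lay above the median of all genes in both sets.

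Among interferon-stimulated genes in micrometastasis, 6 had enough UMIs and 4 had ratios above 1. Isg15 was at 438 CPM in Tim3-KD and 183 CPM in Ctrl, 2.40-fold higher (1.49 to 3.80), and Oasl2 at 373 and 167 CPM, 2.25-fold higher (1.34 to 3.66). Gbp4 was at 206 and 218 CPM. Over all members Isg15 had a ratio of 1.497 (1.13 to 2.01) and Oasl2 1.09 (0.720 to 1.65), and the list median was -0.91, beside -0.90 over all genes. Of the 7 genes then measured, 2 had ratios above 1 and 5 below, and Bst2 and Gbp4 were at least 2-fold lower. Of the other named genes, Csf2rb2, a receptor chain of the IL-3 family, was 3.85-fold higher on 35 and 30 UMIs, and Tubb5 and Tmsb10 had ratios of 0.321 and 0.418. The LSEC identity list had 4 genes below the limit on capped values. In members under 3 leukocyte UMIs 0 of them were 2-fold apart, and the median log2 ratio was -0.37. Fcgr2b was at 2254 and 3014 CPM and Mrc1 at 1429 and 1976 CPM. Over all members Mrc1, Maf and Fcgr2b were at least 2-fold lower in Tim3-KD, with a list median of -1.48 beside -0.90 over all genes.

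AT held enough members only in Tim3-KD, so the sites were compared within that line. The members of these libraries lay in different clusters. The cluster led by H2-Ea and H2-Aa, whose leading genes are mostly of leukocytes, held 37.5% of AT_Tim3-KD members, 6.12% of Micro_Tim3-KD and 5.11% of Macro_Tim3-KD. Most of its members had fewer than 3 leukocyte UMIs. H2-Aa had few UMIs in AT_Tim3-KD (counts below), so the leading genes need not describe the AT members in it. The cluster led by Mt1 and Fabp4 held 0% in AT and micrometastasis and 25.6% in macrometastasis. The part of these clusters in the ratios below was tried only for the second. Macro_Tim3-KD over AT_Tim3-KD and Micro_Tim3-KD over AT_Tim3-KD share the 28 AT members under 3 leukocyte UMIs, and the second of these comparisons was added after seeing the data. Over all members, 58 of 426 genes were at least 2-fold higher in macrometastasis (13.6%) and 25 lower (5.87%), and 63 of 257 were higher (24.5%) and 119 lower (46.3%) in micrometastasis. Under 3 leukocyte UMIs the counts were 35 (11.3%) and 12 (3.86%) of 311 in macrometastasis and 19 (17%) and 19 (17%) of 112 in micrometastasis. In these members Clec1b, Mt1 and Gadd45g were at least 2-fold higher than in AT at both sites. Hgf, Kit and Isg15 were so in macrometastasis and had too few UMIs for a ratio in micrometastasis. Over all members Isg15 was 7.23-fold higher in micrometastasis than in AT (3.98 to 16.2). The 1 pericentral landmark with enough UMIs there had a log2 ratio of -0.21, beside -0.87 over all genes.

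Clec1b was at 215 CPM in AT_Tim3-KD, 1700 CPM in Micro_Tim3-KD and 913 CPM in Macro_Tim3-KD. It was thus 7.80-fold (5.28 to 12.2) and 4.18-fold (2.92 to 6.37) above AT. In the Ctrl libraries it was at 1396 CPM in micrometastasis and 489 CPM in macrometastasis. Of the AT value 43.3% came from 1 member. The platelet marker Pf4 was at 43.0 CPM in AT, 51.5 CPM in micrometastasis and 55.1 CPM in macrometastasis of this line, on 6, 4 and 23 UMIs.

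Mt1, Gadd45g, Cdkn1a, Hgf and Cxcl1 were among the genes of highest ratio to AT. The metallothionein Mt1 was at 969 CPM in AT_Tim3-KD, 2975 CPM in Micro_Tim3-KD and 4729 CPM in Macro_Tim3-KD. In Macro_Tim3-KD it was at 14960 CPM in the 34 members of the cluster led by Mt1 and Fabp4, which held 0 members of AT or micrometastasis, and at 1400 CPM in the other 83. Without that cluster its log2 ratio to AT was 0.53. Gadd45g, which responds to DNA damage and stress, was 6.58-fold (3.62 to 13.6) and 5.83-fold (3.46 to 11.5) above AT. In macrometastasis Cdkn1a, the cell cycle inhibitor p21, was 4.60-fold (2.19 to 13.9), Hgf 4.89-fold (2.20 to 16.9) and Cxcl1, a neutrophil chemokine, 7.28-fold (2.38 to 76.3) higher on 54 and 2 UMIs. Cdkn1a and Cxcl1 were also 4.98-fold and 4.18-fold higher within that cluster than outside it, and without it they had too few UMIs for a ratio to AT. Their lower limits stood above 2.

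Inflammatory genes were higher than in AT in micrometastasis, where the day was the same. All 5 genes of the adhesion list with enough UMIs had ratios above 1, with a median log2 ratio of 1.09, and Icam1, Nfkbia and Socs3 were at least 2-fold higher. Over all members 5 of 9 were above 1 and 4 below, with a median of 0.11 beside -0.87 over all genes, and Icam2 was at least 2-fold lower. Icam1 was at 144 CPM in AT_Tim3-KD and 528 CPM in Micro_Tim3-KD, 3.63-fold higher (2.11 to 6.63). In macrometastasis the list had 7 such genes and a median of -0.02, and Vcam1 was at least 2-fold higher, at 117 CPM against 50.2 CPM. Over all members Vcam1 was at 94.7 CPM against 149 CPM. Whether the 2 sites differ in this was not tested.

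Klf2, Gatm, Pea15a and Igfbp4 were among the genes of lowest ratio to AT. Klf2 was at 1435 CPM in AT_Tim3-KD and 599 CPM in Macro_Tim3-KD, with a ratio of 0.417 (0.345 to 0.505), and at 1017 CPM in Micro_Tim3-KD. In micrometastasis Dnase1l3 had a ratio of 0.487 (0.394 to 0.594) and Gatm, of creatine synthesis, 0.260 (0.159 to 0.392). Pea15a, an adaptor of growth factor signalling, had ratios of 0.362 in macrometastasis and 0.163 in micrometastasis. Igfbp4, a binding protein of insulin-like growth factors, had a ratio of 0.335 (0.228 to 0.470) in micrometastasis. LSEC identity genes in macrometastasis had a median of 0.03, beside 0.03 over all genes, and Clec1b was the only 1 of 13 past 2-fold. In micrometastasis 5 of 6 had ratios below 1, with a median of -0.35 beside -0.15 over all genes, and Dnase1l3 was at least 2-fold lower and Clec1b at least 2-fold higher. Over all members of micrometastasis 6 of 7 were at least 2-fold lower, with a median of -1.74 beside -0.87 over all genes.

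Tim3-KD and Ctrl could not be compared in AT, where the 5 members of Ctrl gave too few UMIs. They held 26 UMIs of Clec4g, 24 of Ptprb, 28 of Kdr and 19 of Stab2, against 599, 804, 519 and 333 in the 32 members of AT_Tim3-KD. They also held 298 UMIs of B cell genes, and 1 of them held 337 UMIs of the 4 leukocyte lists.

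The cell cycle genes Mki67 and Top2a had at most 3 UMIs each in every library among members under 3 leukocyte UMIs. Over all members of Micro_Tim3-KD they had 29 and 21. Cd34, a gene of capillary endothelium that LSECs mostly lack, had 3 to 18 UMIs in each of the 5 libraries with at least 10 members, under 3 leukocyte UMIs, with part of those in Micro_Tim3-KD at the cap. Of the 17 genes of the capillary and basement membrane list, 7 had enough UMIs in macrometastasis under 3 leukocyte UMIs; 6 had ratios of Tim3-KD over Ctrl above 1 and 0 were 2-fold apart. Over all members 9 had enough UMIs, 7 of them had ratios above 1, and Cd9 was at least 2-fold higher. The MHC class II gene H2-Aa had 32 UMIs in Macro_Ctrl, 2 in Macro_Tim3-KD, 6 in Micro_Ctrl, 0 in Micro_Tim3-KD and 7 in AT_Tim3-KD in members under 3 leukocyte UMIs. Over all members it had 187, 27, 221, 21 and 7, and in both metastasis sites at least 81.8% of these came from 1 member of the library. The chemokine Cxcl10 was at 909 CPM in Macro_Ctrl and 649 CPM in Macro_Tim3-KD, and at 712 CPM in Micro_Ctrl and at least 2563 CPM in Micro_Tim3-KD, where part of its UMIs were at the cap.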

How the data were processed

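CD45+ cells from pieces of liver were profiled with 10x Genomics 3' chemistry in 6 libraries. Per the study's methods and the submitters' processing notes, the authors trimmed reads with Trim Galore 0.4.3, mapped them with STAR 2.7.7a to GRCm38, counted UMIs over exons and introns, filtered cells by UMIs, genes and mitochondrial share, removed doublets with scrublet and chose variable genes. The values they deposited are scaled scores, 1 matrix per site, of 4486 (AT), 2669 (micrometastasis) and 2643 genes (macrometastasis), which hold 11.3% to 14.7% of all UMIs of the cells. Features naming several genes were left out.

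The scores were inverted to UMIs, since cells without a UMI of a gene lie on 1 line against total UMIs. Of the detected values below the cap, at least 99.997% were whole with a tolerance of 0.05. Scores at the cap (0.144% to 0.16%) gave lower bounds, so genes with over 10% of UMIs at the cap in either library were left out of ratios, a filter chosen after seeing the files.

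UMIs were summed over members and divided by all their UMIs (Python 3.11.15, numpy 2.4.6, scipy 1.17.1). Ratios had 0.5 added to each sum and needed at least 50 UMIs. Intervals were exact (Poisson, Clopper-Pearson, conditional binomial). On data simulated from the same scaling model, inversion returned 100.0% of the values below the cap exactly, zeros included. This does not test whether that model fits the deposited scores. In a simulated macrometastasis comparison of 1428 genes, 100.0% of 100 genes raised 4-fold and 97.7% of 87 lowered 4-fold were called, as were 1.05% of 1241 unchanged genes. The simulated sums held counting error only, without variation between cells, mice or libraries and without capped values. The 1.05% is therefore not a rate of false calls in the real comparison. Members were clustered with scanpy 1.11.5 (1302 genes, 20 components, 15 neighbours, resolution 0.5), and doublets scored with its scrublet. Total UMIs of members ranged from 40988 (AT_Ctrl) to 1720911 (Macro_Ctrl).

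The members and lists were chosen with earlier results of these data known. Named genes were the 8 highest and 8 lowest of each ratio, genes of the lists, and the 20 highest of members over other cells in Macro_Ctrl. Genes of mitochondria, ribosomal proteins, haemoglobin and antigen receptors, Xist and predicted genes were passed over. Erdr1, Zfp410 and some others in that set were not described. Named outside that rule, after their values were seen, were leading genes of clusters (such as Mt2, Polg2 and Maff) and genes of other groups (Gpr182 and Maf belong to the lists). Alternatives tried were other limits on members, UMIs and added counts, trimmed-mean scaling, and means over cells.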

Additional observations from a re-analysis of the deposited data

Results flagged for a closer look

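The difference in the share of members between Tim3-KD and Ctrl pointed in different directions at the 3 sites. It was 5.63 percentage points in AT, -0.673 in micrometastasis and -4.61 in macrometastasis. With 1 library for each combination the difference between sites was not tested. The AT value rests on 5 members in Ctrl, of which 4 carried leukocyte UMIs.

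Among 36 genes of the lists with enough UMIs in both metastasis comparisons, 10 had log2 ratios of Tim3-KD over Ctrl of opposite sign in micrometastasis and macrometastasis, with counting intervals on opposite sides of equality, in members under 3 leukocyte UMIs (27.8%). Over all 163 genes with enough UMIs in both comparisons, those of the lists included, 16 did (9.82%). None of these differences between sites was tested. Atf3 was at 0.86 in micrometastasis and -1.15 in macrometastasis, Egr1 at 0.53 and -0.82, and Fosb at 0.91 and -0.14; these 3 are immediate early genes. The interferon-stimulated genes Isg15 (1.27 and -0.96), Oasl2 (1.17 and -0.43) and Ifi203 (0.45 and -0.47) were higher in Tim3-KD at day 3 and lower at day 12. Nfkbiz, of the NF-kappaB response, was at 1.49 and -0.52.

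Fcgr2b, Maf and Mrc1, which are LSEC identity genes, were the other way round, with Fcgr2b at -0.42 and 0.27, Maf at -0.33 and 0.24, and Mrc1 at -0.46 and 0.13. They are 3 of the 4 genes of that list tested in micrometastasis, the other was above 0, and none was 2-fold apart at either site in members under 3 leukocyte UMIs. Over all members of micrometastasis these 3 were at least 2-fold lower in Tim3-KD. Over all members the signs in micrometastasis were negative for Egr1 (-0.32), Fosb (-0.22) and Ifi203 (-0.93), as in macrometastasis, but the median over all genes was -0.90 there and -0.05 in macrometastasis. Egr1 and Fosb thus lay above that median. The signs stayed opposite for Atf3 (0.09 and -0.90), Isg15 (0.58 and -0.42), Nfkbiz (0.85 and -0.23), Oasl2 (0.12 and -0.40), Fcgr2b (-1.41 and 0.10) and Maf (-1.55 and 0.08). Mrc1 was below 0 at both sites over all members (-1.63 and -0.09).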

How the results depend on the processing

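No paired analysis was possible because each group had 1 library and no replicate numbers pair libraries within a site; the 3 sites were not used as blocks, since they differ in tissue and day and the share differed in sign between them. Only 1 library stood for each group, so no replicate could be left out, and values at the score cap limit what micrometastasis can show. Among summary values under alternatives, 119 kept their direction and size, 34 moved and 3 reversed. Among the other values, mostly ratios of single genes, 964 stayed, 186 moved and 2 reversed. Without members with 3 or more leukocyte UMIs, the share was 0.0555% in AT_Ctrl and 0.486% in Micro_Tim3-KD. Without cells under 3000 UMIs it was 1.12% in Micro_Ctrl, 0.689% in Micro_Tim3-KD and 1.78% in Macro_Tim3-KD, and it was 3.05% in Macro_Tim3-KD when members were chosen by UMIs of 2 endothelial genes.

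In macrometastasis the 72 higher genes became 121 with at least 20 UMIs, 46 at a score limit of 2, 22 without leukocyte UMIs and 27 also without the Fabp4 cluster. The 26 lower genes became 46 with at least 20 UMIs and 7 with 5 added to each sum. Without leukocyte UMIs and the Fabp4 cluster, list medians were -0.8 (interferon-stimulated), -0.90 (immediate early) and 0.27 (LSEC identity). Without members with a UMI of Clec4f, Vsig4, Cd5l or Marco the immediate early median was -0.79 and H2-Aa reversed to 1.58.

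Against AT, macrometastasis had 149 genes higher and 63 lower with at least 20 UMIs, 35 and 12 without leukocyte UMIs, and 25 and 7 also without the Fabp4 cluster. In micrometastasis over AT the counts were 19 and 19 without leukocyte UMIs, and 55 lower by the mean over cells. In micrometastasis Tim3-KD over Ctrl they were 9 and 15 without leukocyte UMIs, and 51 lower by the mean over cells. Over all genes its median was -0.90 with all members and -0.10 without leukocyte UMIs, so a list can turn sign with that offset. Its medians without leukocyte UMIs were 0.48 (interferon-stimulated, reversed), -0.04 (immediate early), 0.69 (adhesion, reversed) and -0.37 (LSEC identity), and Cdh5 reversed to 0.08. By the mean over cells they were -0.1, -0.06, 0.22 (adhesion, reversed) and -0.77. Members gave 9 clusters at resolution 1. The causes were not tested.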
